A study of Mus musculus with 9 samples.

Results

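A set of 156 genomic tiles was described in which 10 µM 5-aza-2'-deoxycytidine (5-aza-dC) left no more DNA methylation than 0.2 µM, the reverse of the order seen in most tiles. Methylation came from reduced representation bisulfite sequencing (RRBS), which reads bisulfite-converted fragments from CpG-rich DNA, in Abl.1, an immortalised B cell line grown from 1 clone, whose mouse of origin was a female F1 hybrid of 129S1/SvImJ x CAST/EiJ. Cells were grown for 2 days with 1% DMSO as solvent control (2 libraries) or with 0.2 µM (2 libraries), 2 µM (3 libraries) or 10 µM (2 libraries) 5-aza-dC, and live cells were recovered by density centrifugation before DNA was taken. The labels call the libraries library preparation replicates and name no separate cultures, so the p-values below measure the spread between these libraries, which may be technical. Methylation cannot check cell identity against expression markers, and the line is labelled as immortalised B cells without further stage.

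The level of a 1 kb tile is its methylated reads over all reads at its CpGs, in percent. A member lay on chromosomes 1 to 19, had at least 10 reads in every library, held 10 to 39 CpG positions, and had a pooled level (reads of a group's libraries summed) of 80% or above in DMSO and under 60% at 0.2 µM. Its pooled level at 10 µM also had to be at or under that at 0.2 µM. Of 66788 tiles with enough reads, 64685 were autosomal, 27597 of these had the CpG number, 10514 of these reached 80% in DMSO and 9714 of these fell under 60% at 0.2 µM. The last criterion left 156 members, 1.61% of the 9714, and the other 9558 served as comparison tiles. The members were thus chosen by their DMSO, 0.2 µM and 10 µM levels, which are given as a description, while the 2 µM libraries took no part in the choice apart from the read minimum. At the edges of the rule, the member nearest the DMSO limit had 80% in DMSO and the nearest tile outside had 79.8%. At the 0.2 µM limit these were 59.8% inside and 60% outside, and at the last criterion 10 µM lay 0.0483 points under 0.2 µM inside and 0.132 points above it outside.

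In mammalian cells the methyltransferase Dnmt1 copies CpG methylation onto the new strand after each replication. The cytidine analogue 5-aza-dC is built into replicating DNA and traps the enzyme there, so methylation is lost as cells divide. Regions with an intermediate number of CpGs include the edges of CpG islands and the promoters of tissue-restricted genes, where dense methylation goes along with silencing.

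Sequence was available only for promoters, so the stretches shown are from promoters held in part by a member. They do not stand for the set. A start site fell into 10 of the 156 members, 6.41%, and the median distance to the nearest one was 43069 bp. Each stretch below lies before the start site of the gene and inside the member, taken from RefSeq (GRCm38.p6, the assembly of mm10), and the CpGs read in at least 1 library are in capitals. Syt10 encodes a synaptotagmin, a calcium sensor of vesicle release, and its stretch is chr15:89841861-89842000 on the minus strand. Fgf12, which encodes an intracellular relative of the fibroblast growth factors, has chr16:28565001-28565201 on the minus strand. Kit, the receptor for stem cell factor, has chr5:75574737-75574986 on the plus strand. Id4, an inhibitor of helix-loop-helix transcription factors, has chr13:48260866-48261000 on the plus strand. Smc1b, a meiotic cohesin subunit, has chr15:85132001-85132207 on the minus strand.
Syt10: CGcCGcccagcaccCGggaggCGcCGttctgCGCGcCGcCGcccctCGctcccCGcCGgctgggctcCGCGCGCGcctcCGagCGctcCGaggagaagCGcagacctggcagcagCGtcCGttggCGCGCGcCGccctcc
Fgf12: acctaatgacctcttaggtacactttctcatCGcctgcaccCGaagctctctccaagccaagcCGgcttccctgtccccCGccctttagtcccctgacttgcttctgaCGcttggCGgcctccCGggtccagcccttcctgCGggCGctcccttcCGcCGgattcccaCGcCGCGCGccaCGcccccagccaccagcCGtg
Kit: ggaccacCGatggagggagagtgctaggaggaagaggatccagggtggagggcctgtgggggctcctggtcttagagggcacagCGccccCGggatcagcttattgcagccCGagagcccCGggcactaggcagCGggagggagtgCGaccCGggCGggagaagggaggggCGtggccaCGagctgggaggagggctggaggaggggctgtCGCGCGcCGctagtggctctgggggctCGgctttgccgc
Id4: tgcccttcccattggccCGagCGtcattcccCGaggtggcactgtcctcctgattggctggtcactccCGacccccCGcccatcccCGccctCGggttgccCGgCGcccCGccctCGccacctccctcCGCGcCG
Smc1b: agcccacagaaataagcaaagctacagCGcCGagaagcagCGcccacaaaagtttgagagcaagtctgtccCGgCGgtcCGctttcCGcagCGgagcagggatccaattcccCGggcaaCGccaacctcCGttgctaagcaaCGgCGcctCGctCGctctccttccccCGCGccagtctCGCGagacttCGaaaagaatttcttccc

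The CpGs read numbered 26 of 26 in the Syt10 stretch, 17 of 17 in Fgf12, 16 of 17 in Kit, 14 of 14 in Id4 and 20 of 20 in Smc1b. Pooled over libraries, the Syt10 stretch held 85.2% in DMSO (128 reads), 55.8% with 0.2 µM (258 reads), 48.0% with 2 µM (331 reads) and 51.7% with 10 µM (143 reads). The Fgf12 stretch was at 89.3%, 58.0%, 53.6% and 56.5% from 233, 405, 645 and 340 reads in the same order. The Kit stretch was at 77.6%, 68.0%, 39.5% and 54.0% from 116, 128, 281 and 113 reads. In all 3 stretches the lowest pooled level was at 2 µM. The Id4 stretch, from 49 reads in DMSO, went from 89.8% to 61.7%, 52.9% and 56.3%. The Smc1b stretch, from 57 reads in DMSO, went from 78.9% to 59.6%, 45.1% and 53.0%, so 2 µM was lowest in these too. The stretches before Gm46483 and Ribc2 did not share this order. Before Gm46483, from 8 reads in DMSO, 0.2 µM was lowest, with 10% against 27.5% at 2 µM and 21.7% at 10 µM. The part of the Smc1b stretch that also lies before Ribc2 went from 14.3% in DMSO (7 reads) to 30% at 0.2 µM and 45.5% at both higher doses.

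Across the 156 members the mean tile level was 89.0% ± 0.445 without drug (SD, n = 2), 52.1% ± 0.838 with 0.2 µM (n = 2), 45.8% ± 1.45 with 2 µM (n = 3) and 44.8% ± 1.55 with 10 µM (n = 2). By library it was 88.7% and 89.3% in DMSO, 52.7% and 51.5% with 0.2 µM, 44.2%, 47.1% and 46.1% with 2 µM, then 45.9% and 43.7% with 10 µM. The libraries of the 2 higher doses overlapped each other and lay under those of 0.2 µM. The comparison tiles had 90.9% ± 0.121, 34.4% ± 0.281, 52.6% ± 0.786 and 72.3% ± 0.0374 with the same n, a rising order of the doses. At 0.2 µM the members thus held more methylation than the comparison tiles, and at 10 µM less.

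**Figure D1:**
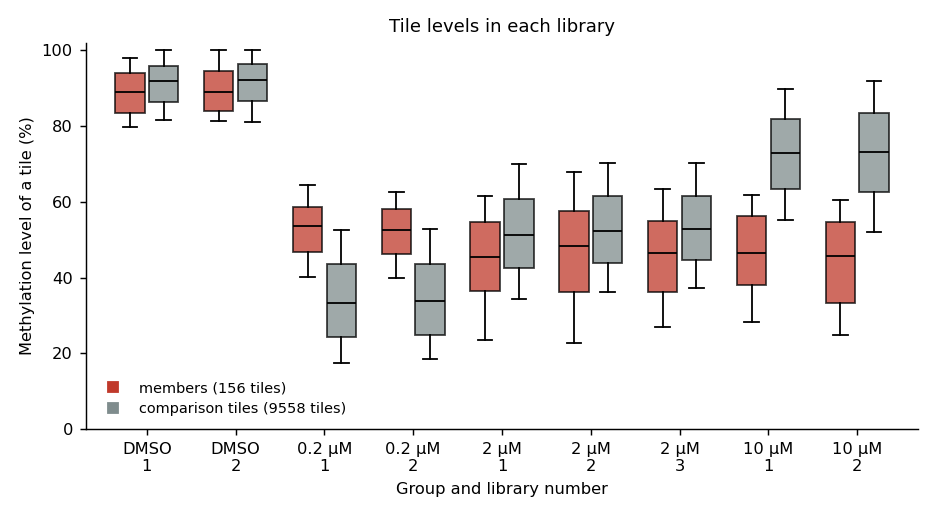
Methylation level of single tiles (percent, y axis) in each of the 9 libraries (x axis), for the 156 members in red and the 9558 comparison tiles in grey. Boxes span the middle quartiles with the median as a line, and whiskers run from the 10th to the 90th percentile. The members stay near 45% to 52% at all doses, while the comparison tiles rise from 34.4% at 0.2 µM to 72.3% at 10 µM.

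The fall from 0.2 µM to 10 µM was small in most members. Its median was 5.04 points of pooled level, 78 of 156 members fell by under 5 points and 36 by more than 10, and the largest fall was 38.4 points. Both 10 µM libraries lay under both 0.2 µM libraries in 37 members, where 3.12% of all tiles show that order, but the rule used these levels. Nor was 10 µM the lowest dose throughout. The pooled level was lowest at 10 µM in 68 members and lowest at 2 µM in 87, and 1 member had neither order.

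**Figure D2:**
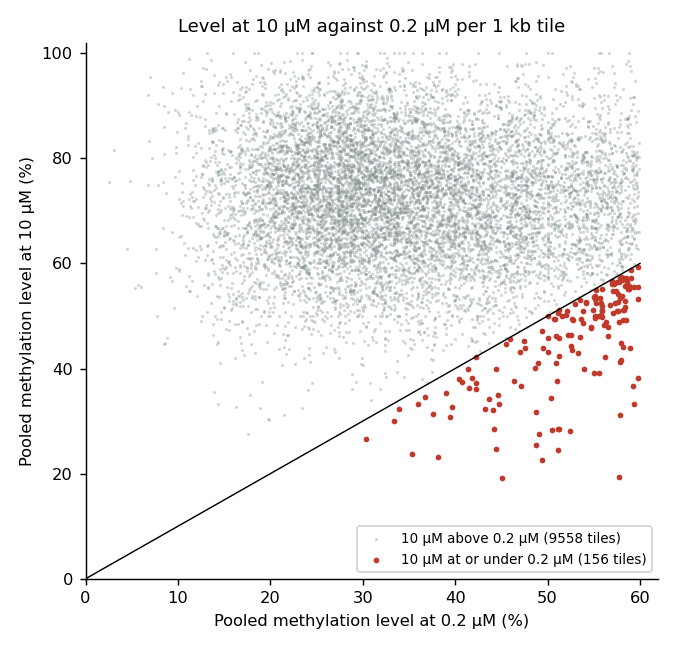
Pooled methylation level at 10 µM (y axis, percent) against that at 0.2 µM (x axis, percent) for the 9714 tiles that meet every other criterion, 1 point per tile, with the line of equality. The 156 members in red lie on or under the line, most of them close to it, and the 9558 comparison tiles in grey lie above it.

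A binomial model of the reads was fitted to each of the 66788 tiles over all 9 libraries, with limma's moderation of the dispersion and Benjamini-Hochberg adjusted p under 0.05 as threshold. Between 10 µM and 0.2 µM, 6 members passed as lower, and 0.0883% of all tiles did; the rule used this contrast. The count fell to 3 without either library of 0.2 µM and was 9 without 10 µM replicate 1. Against DMSO, 150 members were lower at 0.2 µM (63.2% of all tiles), 147 at 2 µM (49.5% of all tiles) and 139 at 10 µM (14.2% of all tiles). By share these were 96.2%, 94.2% and 89.1% of the members, beside 99.5%, 93.1% and 29.7% of the comparison tiles. The rule set the DMSO level high and the 0.2 µM level low in both sets. It also put 10 µM at or under 0.2 µM in members and above it in comparison tiles. The shares at 0.2 µM and 10 µM, and the gap between the sets at 10 µM, thus largely follow from the choice of tiles. At 2 µM only the DMSO side was set by the rule. The count at 10 µM was 20 without DMSO replicate 1 and 46 without DMSO replicate 2. All 7 drug libraries lay below both DMSO libraries in 150 members, 96.2%, beside 74.2% of the comparison tiles and 43.0% of all tiles. The rule used all of these libraries except those of 2 µM, so it favoured this order in the members. The median change at 2 µM was -42.1 points in the members, -38.8 in the comparison tiles and -22.6 over all tiles.

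The 2 µM libraries gave a reading that the rule did not use. Among tiles with a 0.2 µM level from 50% to 60%, 113 members had a mean of 47.4% ± 1.30 at 2 µM (SD, n = 3), and 1152 comparison tiles had 55.8% ± 0.843. From 40% to 50% at 0.2 µM, 32 members had 40.6% ± 1.08 and 1875 comparison tiles had 53.3% ± 0.870. In these bands no 2 µM library overlapped between members and comparison tiles, at 46.0% to 48.5% against 54.9% to 56.5% in the upper band and 39.7% to 41.8% against 52.4% to 54.2% in the lower. From 20% to 40%, only 11 members were found, with 44.6% ± 6.83, and 5616 comparison tiles had 52.0% ± 0.727. In this band the 2 µM libraries overlapped, at 39.5% to 52.4% in members against 51.2% to 52.5%. The 2 µM mean of these 11 members also lay above their 0.2 µM mean of 36.2%. All these ranges are of library means and do not cover the spread between tiles. The DMSO means were 89.2% in members and 90.2% in comparison tiles in the upper band and 88.5% and 90.6% in the lower, so the sets were close but not equal there.

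The pooled 2 µM level was at or under the 0.2 µM level in 120 of 156 members, 76.9%, in 9.73% of the comparison tiles and in 21.5% of all tiles. The 0.2 µM side of this order was set by the rule. Tested one by one, 7 members were lower at 2 µM than at 0.2 µM (0.395% of all tiles) and 1 was higher (10.9% of all tiles), by the same model and threshold. All 3 libraries of 2 µM lay under both of 0.2 µM in 44 members, beside 4.24% of all tiles. Of the 7, 5 were among the 6 tiles also lower at 10 µM, and 1 lay in Gm18182. Without 0.2 µM replicate 1 the count of 7 fell to 1, and without 0.2 µM replicate 2 to 0. The member higher at 2 µM, chosen here after its values were seen, was on chromosome 2 at 18041001 to 18042000, with 29.3% and 45.9% under 0.2 µM, 74.5%, 70.5% and 62.7% under 2 µM, then 48.8% and 0% under 10 µM. Its 10 µM libraries stood far apart, from 43 and 24 reads, and limma on the levels did not call it.
Between 10 µM and 2 µM the same tile was the only member called lower (0.021% of all tiles). By that test 0 members were higher (8.14% of all tiles), with 4 at an unadjusted p under 0.05 and 0 by limma on the levels.

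Whether the reversed order repeats was read in libraries that did not choose the tiles. Applied to the libraries numbered 1 of DMSO, 0.2 µM and 10 µM alone, the rule gave 233 tiles, with a mean of 49.9% at 0.2 µM and 40.7% at 10 µM in those libraries. In the libraries numbered 2 the same tiles had 45.5% at 0.2 µM and 62.5% at 10 µM, and 59 of 233, 25.3%, kept 10 µM at or under 0.2 µM. In the other direction the rule gave 395 tiles at 47.5% and 37.7%, which had 43.8% and 62.9% in the libraries numbered 1, and 77 of them, 19.5%, kept the order. With all libraries but 10 µM replicate 1 the rule gave 375 tiles, and with all but 10 µM replicate 2 it gave 272. Most tiles chosen with 1 library per group thus returned to the usual order. The share was still above that of the comparison tiles chosen the same way, 4.72% of 9191 and 3.29% of 9295. When chosen, those tiles had means of 33.2% and 33.4% at 0.2 µM and of 72.5% and 72.6% at 10 µM. They started far from the reversed order, so the higher share does not show that the order repeats.

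**Figure D3:**
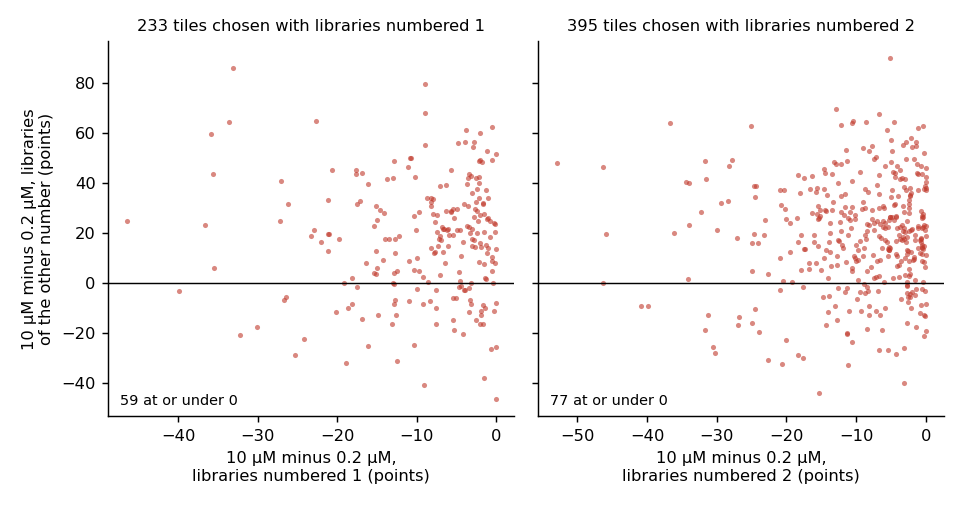
Difference in level between 10 µM and 0.2 µM, in percentage points, for tiles chosen with the libraries numbered 1 (left, 233 tiles) or numbered 2 (right, 395 tiles), 1 point per tile. The x axis gives the libraries that chose the tiles and the y axis the libraries of the other number, where 59 and 77 tiles lie at or under 0.

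The rule was met by each numbered set on its own in 35 tiles, all of them members, which nearly follows from pooling the same libraries. At 2 µM, which neither set used, these 35 had a mean of 39.8% ± 2.41 (SD, n = 3), and the other 121 members had 47.6% ± 1.37. By library these were 38.2%, 42.5% and 38.5% against 46.0%, 48.4% and 48.3%, with no overlap. These are library means and do not cover the spread between tiles. The 35 also had a lower 0.2 µM mean, at 49.6% against 52.8%, and a higher DMSO mean, at 90.7% against 88.5%. Their 10 µM mean, which the choice used, was lower too, at 37.4% against 46.9%.

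The 6 members past the threshold between 0.2 µM and 10 µM were described one by one. The first, on chromosome 6 at 102041001 to 102042000 with no RefSeq gene over it, had 86.4% and 77.8% in DMSO, 65.6% and 52.3% with 0.2 µM, 26.2%, 22.2% and 28.8% with 2 µM, then 21.4% and 14.8% with 10 µM. Its difference between 10 and 0.2 µM was -40.8 points, with an adjusted p of 0.000573 by limma's moderation and 0.000278 to 0.0145 over 12 alternatives. The groups did not overlap, and the reads per library ran from 22 and 18 in DMSO to 164, 194 and 267 at 2 µM. The next lay on chromosome 12 at 91164001 to 91165000 in Cep128, which encodes a protein of the centriole. It had 95% and 85.7% in DMSO, 40.2% and 48.4% with 0.2 µM, 15.4%, 15.2% and 18.6% with 2 µM, then 21.3% and 16.7% with 10 µM. Its difference was -25.3 points, with an adjusted p of 0.000762 by limma's moderation and 0.000564 to 0.0257 over 13 alternatives. Its reads rose from 40 and 35 in DMSO to 389 and 312 at 10 µM.

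The next pair showed the same shape. On chromosome 2 at 95298001 to 95299000, outside genes, the level was 82.6% and 88.4% in DMSO, 49.1% and 49.7% with 0.2 µM, 23.0%, 14.4% and 26.9% with 2 µM, then 16.9% and 29.0% with 10 µM. The adjusted p was 0.00679 by limma's moderation and 0.00257 to 0.0856 over alternatives, past the threshold in 12 of 13. On chromosome 17 at 59046001 to 59047000, also outside genes, it was 88.5% and 87.1%, then 54.4% and 51.0%, then 26.9%, 20% and 29.4%, then 24.4% and 33.3%. Its adjusted p was 0.0214 by limma's moderation and 0.0110 to 0.138 over alternatives, past the threshold in 10 of 13. In both tiles every library of the 2 higher doses lay under every library of 0.2 µM.

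The remaining pair was less steady. On chromosome 6 at 27142001 to 27143000, outside genes, the level was 87.5% and 90% in DMSO, 46.3% and 58.1% with 0.2 µM, 15.2%, 19.4% and 18.1% with 2 µM, then 37.3% and 17.3% with 10 µM. Its adjusted p was 0.0449 by limma's moderation, and 9 of 13 alternatives passed. On chromosome 15 at 14733001 to 14734000, 1044114 bp from the nearest start site, the level was 76.1% and 86.1% in DMSO, 47.9% and 49.4% with 0.2 µM, 39.8%, 46.9% and 30.8% with 2 µM, then 19.3% and 31.1% with 10 µM. Its adjusted p was 0.0269 by limma's moderation, and 10 of 13 alternatives passed. In the unweighted mean of the 13 CpGs that every library read, this tile went the other way, from 47.9% at 0.2 µM to 70.7% at 10 µM. The other 5 kept their direction in that mean, each over 5 or 6 CpGs.

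**Figure D4:**
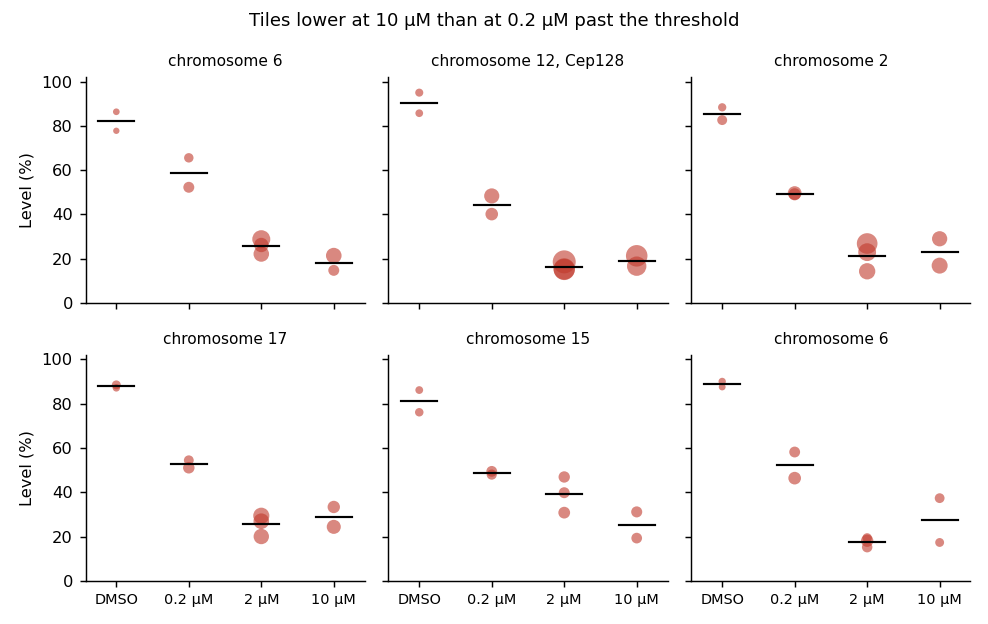
Methylation level (percent, y axis) by group (x axis) in the 6 members called lower at 10 µM than at 0.2 µM, 1 point per library, with the area of a point growing with its reads and a line at the group mean. In all 6 the points at 2 µM and 10 µM are both lower and larger than those of DMSO.

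These tiles also shared a change in read number, which the rule did not use beyond its minimum. In RPM (reads scaled to the library's total), the tile on chromosome 6 at 102041001 went from 1.62 in DMSO to 4.92 with 0.2 µM, 14.7 with 2 µM and 12.6 with 10 µM. The tile in Cep128 went from 3.07 to 10.1, 28.6 and 33. At 2 µM, 4 of the 6 had over 4 times the DMSO value, and all 6 had over 2 times, as did 45.5% of all members, 32.8% of comparison tiles and 14.4% of all tiles. The 6 were chosen by a test that weights tiles by their reads. In all 156 members 7 passed 4 times at 2 µM, 4.49%, beside 0.827% of comparison tiles and 0.284% of all tiles. Whether this gain in reads plays a part in the level was not tested.

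In the median, read numbers were also above DMSO in the whole set. The median log2 ratio of RPM to DMSO (0.1 added) in the members was 0.54 with 0.2 µM, 0.92 with 2 µM and 0.77 with 10 µM, and 0.83, 0.78 and 0.63 in the comparison tiles. Over all tiles it was 0.28, 0.31 and 0.25. By limma on these log2 values, with Benjamini-Hochberg adjustment over all tiles, 66 members had more reads at 2 µM than in DMSO (13.7% of all tiles), 36 at 10 µM (4.1% of all tiles) and 22 at 0.2 µM (6.6% of all tiles). In the comparison tiles the shares were 32.1%, 9.23% and 21.2% in that order. The highest median was thus at 2 µM in the members and at 0.2 µM in the comparison tiles. Across the 156 members the log2 read ratio and the level, which share the same reads, had a Pearson correlation of 0.056 with 0.2 µM, -0.397 with 2 µM and -0.151 with 10 µM, and a Spearman correlation of 0.0701, -0.281 and -0.119.

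Split by kind, methylated RPM per tile in the members were 3.06 ± 0.505 without drug (SD, n = 2), 2.71 ± 0.000820 with 0.2 µM (n = 2), 2.90 ± 0.0507 with 2 µM (n = 3) and 2.80 ± 0.0652 with 10 µM (n = 2). Unmethylated reads went from 0.422 ± 0.0493 to 2.38 ± 0.0751, 3.72 ± 0.174 and 3.41 ± 0.247 with the same n. In the comparison tiles methylated reads were 3.14 ± 0.309, 2.15 ± 0.0404, 3.11 ± 0.123 and 3.85 ± 0.0734, and unmethylated reads 0.325 ± 0.0273, 3.95 ± 0.0329, 2.87 ± 0.0220 and 1.54 ± 0.0306. In the members methylated reads at each dose lay within the spread of the DMSO libraries, but those with 2 µM were above those with 0.2 µM by more than the spread at these doses. Unmethylated reads were above DMSO by more than the spread at every dose. A loss of methylation per copy and a gain in recovered unmethylated copies cannot be told apart in these values.

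**Figure D5:**
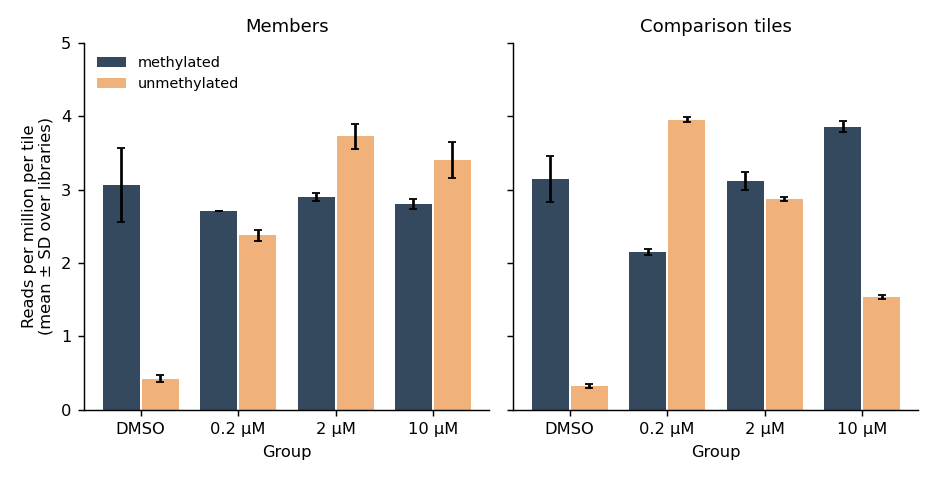
Methylated (dark) and unmethylated (light) RPM per tile, mean with SD over the libraries of a group (y axis), by group (x axis), in the 156 members (left) and 9558 comparison tiles (right). In the members methylated reads stay between 2.71 and 3.06 while unmethylated reads peak at 2 µM with 3.72. In the comparison tiles unmethylated reads peak at 0.2 µM with 3.95.

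The best covered members mostly showed a small fall from 0.2 to 10 µM. The 10 with the most reads in their least covered library included tiles in Tfap2b, a neural crest transcription factor, in Fetub, a protease inhibitor secreted by the liver, at Fgf12, at Tsc22d1, a leucine zipper transcription regulator, and in Sptbn4, the spectrin of axon initial segments. The deepest, in Fetub on chromosome 16 at 22928001 to 22929000, had 470 and 313 reads in DMSO. Its level was 86.4% and 86.3% in DMSO, 57.5% and 53.1% with 0.2 µM, 43.0%, 48.6% and 54.7% with 2 µM, then 52.9% and 57.5% with 10 µM, so the dose groups overlapped. Its pooled level fell by 0.346 points from 0.2 to 10 µM. The largest fall of the 10 was on chromosome 7 at 11574001 to 11575000, outside genes, with 46.9% and 62.5% at 0.2 µM and 39.4% and 46.2% at 10 µM, so its groups did not overlap. The Sptbn4 tile followed with a pooled level that fell by 5.09 points, and its libraries overlapped. None of the 10 deepest passed between 10 µM and 0.2 µM in the model, and their adjusted p-values by limma's moderation ran from 0.217 to 1.00. The least covered library of a member held 20.5 reads in the median, beside 23.0 in comparison tiles, and 67 members had under 20 reads in some library.

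Tiles with the largest falls among members with 20 or more reads in every library, and with no overlap between 0.2 and 10 µM, included 3 that did not pass the threshold. In Cdk7, the kinase of the transcription factor TFIIH, the tile on chromosome 13 at 100704001 to 100705000 had 43.5% and 53.4% with 0.2 µM, 41.1%, 61.0% and 52.9% with 2 µM, then 31.0% and 22.2% with 10 µM, from 24 to 70 reads. Here 10 µM lay below both other doses, with an adjusted p of 0.121 by limma's moderation against 0.2 µM. In Gm18182 on chromosome 1 at 117749001 the tile had 57.1% and 40.6%, then 15.8%, 24.5% and 16.4%, then 17.2% and 37.5%, with an adjusted p of 0.0709 by limma's moderation. In Gm35599 on chromosome 15 at 87862001 it had 59.5% and 56.0%, then 53.8%, 38.5% and 41.9%, then 49.3% and 31.5%, with an adjusted p of 0.176 by limma's moderation. A member in the immunoglobulin heavy chain locus Igh, on chromosome 12 at 115559001 and named after its values were seen, had 95.7% and 100% in DMSO, 42.4% and 35.3% with 0.2 µM, 23.5%, 19.7% and 14.4% with 2 µM, then 22.2% and 23.9% with 10 µM. This tile was not among the members that passed the threshold between 10 µM and 0.2 µM.

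Neighbouring tiles gave a second reading from other CpGs, although a fragment can cross the border of 2 tiles. Of the tiles directly beside a member, 37 had enough reads and were no members. By the binomial model 0 of them were lower at 10 µM than at 0.2 µM (0.0883% of all tiles), with 0 at an unadjusted p under 0.05 and 0 by limma on the levels. At the same threshold 11 were higher, 29.7%, where 55.1% of the tiles beside comparison tiles and 41.2% of all tiles were. Between 2 µM and 0.2 µM, 4 of the 37 were lower (0.395% of all tiles). In that contrast 0 were higher (10.9% of all tiles), with 6 at an unadjusted p under 0.05. Among the 25 with a DMSO level of 80% or above, the mean was 92.2% ± 0.493 without drug (SD, n = 2), 55.3% ± 0.811 with 0.2 µM (n = 2), 56.2% ± 2.97 with 2 µM (n = 3) and 72.5% ± 1.66 with 10 µM (n = 2). The 805 tiles of that DMSO level beside comparison tiles had 92.3% ± 0.292, 39.1% ± 0.521, 52.6% ± 0.523 and 71.8% ± 0.320. The neighbours of members thus kept more methylation at 0.2 µM, by more than the spread of the libraries, and at 10 µM differed from those of comparison tiles by less than it. The spread of the libraries does not cover the spread between tiles, which was not compared here. Only 1 pair of members was adjacent.

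Position was compared with the comparison tiles by counts alone, without a test. A RefSeq gene overlapped 87 of 156 members, 55.8%, and 76.9% of the comparison tiles. The median distance to the nearest start site of the promoter table was 43069 bp in members and 16330 bp in comparison tiles. A start site itself fell into 10 members, 6.41%, and into 4.33% of comparison tiles. Members made up 4.56% of the candidate tiles on chromosome 3 (19 of 417), 0.537% on chromosome 11 (5 of 931) and 0.366% on chromosome 18 (1 of 273), around 1.61% in all. The median number of CpGs was 15.0 in members and 14.0 in comparison tiles.

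The gene lists held 4 members in all, and each list had too few tiles for its share to be read against the 1.61% of members among the 9714 tiles. Among 33 imprinted genes, 14 had a tile of the 9714, and these were 17 comparison tiles and 1 member, in Gnas, which encodes a G protein subunit. It lay 13681 bp from the nearest start site and had 84.9% in both DMSO libraries, 58.1% and 60.2% at 0.2 µM, and 59.5% and 57.7% at 10 µM. No member overlapped a listed germline gene (16 comparison tiles), a listed B lineage gene (17), a homeobox, Sox or T-box regulator (31) or a gene of the methylation machinery (15). The B lineage list did not hold Igh, the locus of the member described above. Smc1b is on the germline list, but the member lies before it and overlaps the neighbouring gene Ribc2. Other blood lineage genes held 26 comparison tiles and 1 member, in Gata3, a T cell transcription factor. It had 98.0% and 100% in DMSO, 50.0% and 51.7% with 0.2 µM, 51.6%, 26.6% and 56.4% with 2 µM, then 42.5% and 49.1% with 10 µM. Tumour suppressor and cell cycle inhibitor genes held 23 comparison tiles and 2 members, in the oxidoreductase gene Wwox and in Dapk1, a kinase linked to cell death. The Wwox tile had 55.6% and 63.6% with 0.2 µM and 53.6% and 47.4% with 10 µM, from at least 18 reads per library. The Dapk1 tile had 54.1% and 58.5%, then 41.2% and 62.5%, so its groups overlapped.

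Whole tiles at promoters hold more CpGs than the stretches printed above. The tile at Kit had 81.4% and 81.3% in DMSO, 61.9% and 45.5% with 0.2 µM, 47.9%, 41.0% and 38.7% with 2 µM, then 39.6% and 52.4% with 10 µM. The tile beside Fgf12 had 87.3% and 91.2%, then 55.4% and 60.8%, then 50.7%, 50.7% and 57.9%, then 57.5% and 55.5%. In both, the 10 µM libraries overlapped those of 0.2 µM. Against DMSO, which the rule set high, both were lower at 2 µM, as were 147 of the 156 members and 49.5% of all tiles. The adjusted p-values at Kit and Fgf12 were 0.000142 and 0.000118 by limma's moderation.

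Inside the members, single CpGs followed the tile in part. The rule used the pooled reads of these same CpGs, so it favoured that order in the counts here, which are a description. Of 639 CpGs with at least 10 pooled reads at both 0.2 µM and 10 µM, 452, or 70.7%, had a 10 µM level at or under that at 0.2 µM. Among 104 members with 3 or more such CpGs, 82 had that order at more of them than not, 30 of these at every one, and 22 had it at no more than an equal share. In the unweighted mean of the CpGs shared by all libraries, 117 of the 152 members with such a CpG kept the order and 35 did not. Tile levels weight CpGs by reads, and the CpGs covered differ between libraries.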

How the data were processed

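The authors deposited 1 table per RRBS library with a CpG position, the methylated over all reads as 1 text entry, and a score, per the file contents. The authors' score was the whole-number part of 1000 times that share in all lines and served only as a check. The genome build is mm10, per the submitters' processing notes; which aligner, caller and read filters were used is not given in the sources used here. All 250929 CpGs of the files inside autosomal RefSeq promoter windows (GRCm38.p6) fell on a CG. Between 1 and 2 lines of odd width and 18 to 68 lines at repeated positions per library were left out. Libraries held 8590883 to 16495535 reads at CpGs, a median of 3 to 5 per CpG. A level from 10 reads with 5 methylated has a 95% Wilson interval of 23.7% to 76.3%, and one from 100 reads with 50 methylated 40.4% to 59.6%. Such intervals cover counting error only, since reads copied by PCR are not independent molecules. Squared differences between libraries of a group were 1.68 to 3.06 times the binomial variance over tiles at 10 to 90%, so no library repeats another.

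Each tile was tested with 1 level per group and all libraries. Reads were scaled to an effective number, with a correlation of reads within a tile of 0.0290 in the class of lowest coverage and 0.00896 in the highest of 5. Dispersion was moderated with limma 3.58.1 (R 4.3.3), with the prior from tiles at 10 to 90% and not under 1. A first version, with the prior from all tiles, failed a test on data with known answers. It was replaced after both versions had been run on the real data, so the choice was made with the call counts known. The version used here was tested on simulated data too and called a minority of the tiles made to differ, so a tile that was not called may still differ. A change is the difference of group means over libraries in points. The members, gene lists and tests were chosen with earlier results of these data known. Tiles to name were drawn from the 10 deepest members, 8 with the largest fall at 20 or more reads and no overlap, and those past the threshold. Members in listed genes and up to 8 holding a promoter, by the CpGs read in it, were added. Not all of these are named in the text. Same-numbered libraries did not deviate together (correlations of -0.00841 to 0.00430), so numbers were not used as pairs. The read number test, its limit of 4 times, the bands of the 0.2 µM level and the set of 35 tiles were chosen after the data were seen. RPM divides by the library's reads at CpGs. The alternatives tried are in the closing section. The result for 1 member is not reported here.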

Additional observations from a re-analysis of the deposited data

How the results depend on the processing

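The rule gave 136 to 375 tiles when 1 library was left out, with the highest numbers, 375 and 272, without 10 µM replicates 1 and 2. Of these, 117 and 108 were among the 156 members. Without 0.2 µM replicates 1 and 2 the rule gave 150 and 136 tiles, of which only 89 were members in each case. Similar counts thus did not mean the same tiles. It gave 89 with at least 20 reads, 66 with DMSO at 90% or above, and 395 from the libraries numbered 2 alone. From unweighted CpG means it gave 230, of which 89 were among the 156. The mean 2 µM level was 44.7% to 49.5% with 1 library left out and 47.9% from unweighted CpGs. With 1 library left out, members lower than DMSO numbered 114 to 153 at 0.2 µM, 123 to 149 at 2 µM and 20 to 143 at 10 µM. With at least 20 reads they numbered 87, 86 and 83, where only 89 members remained. Members lower at 10 µM than at 0.2 µM numbered 3 to 9 (3 without either 0.2 µM library), those lower at 2 µM than at 0.2 µM 0 to 8, and those higher 0 to 2, with 1 library left out. Members lower at 10 µM than at 2 µM numbered 0 to 4 and those higher 0 to 1. Neighbours lower at 10 µM than at 0.2 µM numbered 0 to 1 and those higher 6 to 12, and 6 were higher with at least 20 reads. A group left with 1 library is assumed there to vary like the others. With unscaled reads 12 members were lower at 2 µM than at 0.2 µM. With limma on levels 0 members rose from 0.2 to 2 µM and 0 fell from 2 to 10 µM. In the fit with the replicate number as a block (a replicate block without the third library of 2 µM) these counts were 0 and 2, and the same 6 members were lower at 10 µM than at 0.2 µM. The cause of these shifts was not tested. At 2 libraries per group, depth and number limit single tiles: 67 of 156 members had under 20 reads in some library. Requiring 3 or more CpGs read in every library, an alternative added after the data were seen, kept 145 members.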

Other observations

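The X chromosome was outside the rule. Of 2100 X-linked tiles with at least 10 reads in every library, 331 met every other criterion and 10 of these had 10 µM at or under 0.2 µM.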
